A study of Homo sapiens with 6 samples.

Results

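To explore the antigen-presenting machinery of oral cancer cells after silencing of interleukin-1β (IL-1β), 9 genes of the MHC class I presentation pathway were followed: HLA-B, HLA-E, HLA-F, B2M, TAP1, TAP2, TAPBP, PSMB8 and PSMB9. They were 9 of 19775 genes with a probe set (short probes read together for a transcript) whose platform annotation listed a single symbol, and every such probe set of the 9 genes was taken, 22 in all. Expression was measured on Affymetrix Human Genome U133 Plus 2.0 arrays in Cal27, a cell line established from a human squamous cell carcinoma of the tongue. The silenced cells carried LV-shIL-1β, a lentiviral short hairpin RNA against IL-1β (3 arrays), and the control cells carried LV-shNC, the same kind of vector with a scrambled hairpin (3 arrays). Both lines had been selected in puromycin (2 µg/mL, 2 weeks), so transduction and drug were shared by the groups. A single cell line and a single hairpin against IL-1β were used, and no source used here states that the arrays of a group stand for separate cultures, so that p-values measure only the array-to-array spread, which may be technical.

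Class I molecules display peptides from inside the cell to CD8 T cells and natural killer cells. The immunoproteasome cuts proteins into peptides, the TAP transporter carries them into the endoplasmic reticulum, and tapasin helps to load them onto a heavy chain that is paired with β2-microglobulin. The genes of this route are known for their response to interferons and NF-kB, and IL-1β is a cytokine whose receptor activates NF-kB.

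Promoter windows in RefSeq (assembly GRCh38.p14, 250 bases before to 50 after an annotated start) matched 8 of the 9 genes (all but HLA-E), with 10 windows. Matches to GAAANNGAA, the core of the interferon response element, were present for 6 genes (HLA-F, B2M, TAP1, TAP2, TAPBP and PSMB8). They lay in 6 of the 10 windows, against 8.11% of all 35116 windows. Matches to GGGNNTTCC, an NF-kB type motif, were present for 4 genes (HLA-B, B2M, TAPBP and PSMB8). These lay in 4 of the 10 windows, against 6.58% of all windows. CCAAT, the motif of the factor NF-Y, which takes part in class I transcription, matched for 5 genes (HLA-B, HLA-F, B2M, TAP1 and PSMB9). It matched in 5 of the 10 windows, against 34.6% of all windows. TAP1 and PSMB9, which lie head to head, shared the same match. GGGCGG (GC box) matched for 5 genes, TTCNNNGAA (STAT type) for 2 and TGACGT (part of a CRE) for 1. These lay in 7, 2 and 1 of the 10 windows, against 45.0%, 7.66% and 7.98% of all windows. Both strands were searched, overlapping matches of 1 motif were kept, and a match is a string of letters and not a measured binding site. Only these exact strings were searched, so a window without a match can still hold a variant of the element. The last 200 bases before the start are shown for HLA-B and HLA-F (heavy chains), B2M (light chain) and TAPBP (tapasin), because their windows hold these motif types in different combinations. Capitals mark matches to GAAANNGAA, GGGNNTTCC and CCAAT on either strand, and adjoining matches run together. HLA-B lies at chr6:31357180-31357379 (minus strand), HLA-F at chr6:29723234-29723433 (plus strand), B2M at chr15:44711317-44711516 (plus strand) and TAPBP at chr6:33314079-33314278 (minus strand).
HLA-B promoter: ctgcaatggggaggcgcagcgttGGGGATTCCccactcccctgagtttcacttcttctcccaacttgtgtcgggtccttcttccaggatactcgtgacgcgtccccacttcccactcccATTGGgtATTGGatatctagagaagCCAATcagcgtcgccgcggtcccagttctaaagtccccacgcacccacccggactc
HLA-F promoter: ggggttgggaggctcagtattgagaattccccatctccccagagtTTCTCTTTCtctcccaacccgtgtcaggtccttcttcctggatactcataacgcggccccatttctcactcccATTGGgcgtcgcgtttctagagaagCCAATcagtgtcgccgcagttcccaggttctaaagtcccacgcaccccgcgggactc
B2M promoter: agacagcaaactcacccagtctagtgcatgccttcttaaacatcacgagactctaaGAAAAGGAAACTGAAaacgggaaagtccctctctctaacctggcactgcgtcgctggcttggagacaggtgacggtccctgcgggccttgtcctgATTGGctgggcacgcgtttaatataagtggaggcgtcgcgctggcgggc
TAPBP promoter: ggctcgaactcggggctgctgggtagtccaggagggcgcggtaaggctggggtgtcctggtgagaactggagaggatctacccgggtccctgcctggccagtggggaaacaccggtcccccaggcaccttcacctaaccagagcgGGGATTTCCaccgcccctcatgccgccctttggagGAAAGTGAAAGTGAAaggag
The HLA-B stretch held an NF-kB type match and 3 CCAAT matches, and the HLA-F stretch an interferon type match with 2 CCAAT matches. In B2M the interferon type matches overlapped, and its NF-kB type match spans the start, so that only its first bases end the printed stretch, unmarked.

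IL1B itself, the target of the hairpin, was lower on both of its probe sets. The brighter one (205067_at) read 1569, 1569 and 1596 on the LV-shIL-1β arrays, against 2677, 2611 and 2494 on the LV-shNC arrays, a log2 fold change of -0.72 ± 0.04 (SE, limma adjusted p = 2.46e-05). The other probe set (39402_at) changed by -0.74 on the log2 scale. These changes correspond to -39.1% (205067_at) and -40.2% (39402_at), so the fall of IL1B RNA was partial. The defining markers of the squamous epithelium were present, with all 6 genes that had a single-symbol probe set (of 9 listed) above the filter, and their summed signal was 19755 to 20148 in LV-shIL-1β and 21687 to 22563 in LV-shNC. KRT5 and KRT14, keratins of basal cells, were the 2 of them that fell. Of the leukocyte markers on the array, 1 of 8 passed the filter (CD14, called higher), with PTPRC, CD3E, CD4, CD8A, ITGAM, CD53 and LCP2 below it, and the summed signal was 140.5 to 145.1 in LV-shIL-1β and 117.5 to 125.7 in LV-shNC. Of the fibroblast markers 4 of 7 passed the filter and 2 fell (COL1A2 and LUM), with sums of 124.4 to 138.0 in LV-shIL-1β and 157.1 to 179.1 in LV-shNC, and of the endothelial markers 1 of 5 passed it (PECAM1, not called), with sums of 69.0 to 71.7 in LV-shIL-1β and 72.2 to 74.5 in LV-shNC. RNA integrity was read from probe sets at both ends of control transcripts, as log2 of the 3′ over the 5′ signal. For ACTB this was 0.39 ± 0.05 in LV-shIL-1β and 0.41 ± 0.13 in LV-shNC, while for GAPDH it was 0.04 ± 0.01 in LV-shIL-1β and -0.02 ± 0.03 in LV-shNC without overlap (SD, n = 3). The part of these differences in the results below was not tested.

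Of the 22 probe sets of the pathway, 21 passed the filter on low signal (above 18.6 on at least 3 of the 6 arrays) and entered the limma comparison over 27566 probe sets. HLA-E on 1 probe set fell, and no member rose: 0 of 21 were called higher and 1 of 21 lower (4.76%) at an adjusted p under 0.05, against 3.68% of all tested probe sets called higher and 3.37% called lower. The share called lower in the pathway was thus near the background. At a fold over 1.5 with an unadjusted p under 0.05 and no filter, 0 members were called in either direction, against 0.271% of all probe sets higher and 0.201% lower. Unadjusted limma p-values under 0.05 were found for 4 of the 21 (1 higher and 3 lower), a share of 19.0%, against 22.6% of all tested probe sets, and the methods' own test gave the same counts. The median log2 fold change was -0.04 over the members and 0.01 over all tested probe sets. Of the 21 members, 16 (76.2%) lay below 0, against 46.8% of all. These 21 are not independent, since several probe sets read the same gene and some can match other HLA transcripts. The median size of the change, whatever its sign, was 0.07 for the members and 0.09 for all.

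**Figure D1:**
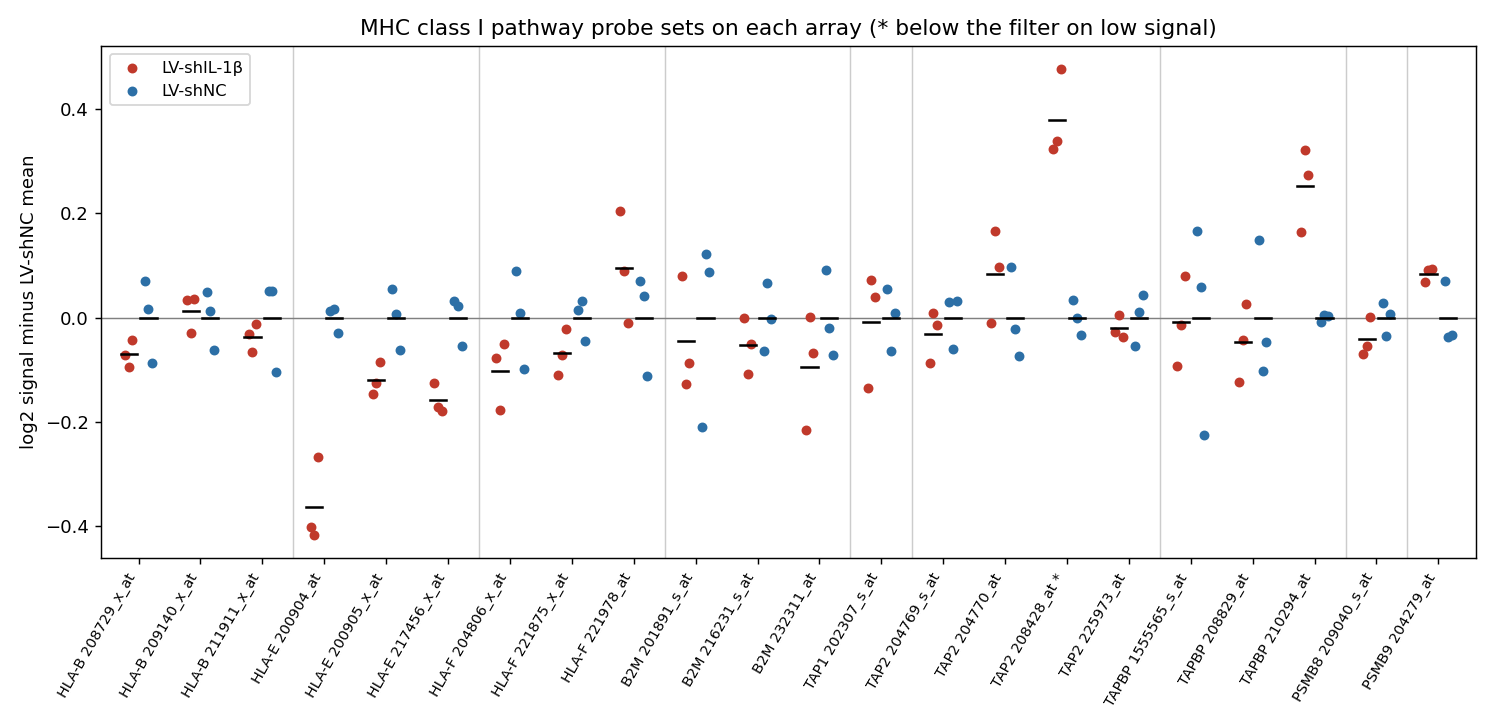
Each point is 1 array, given as log2 signal minus the mean of the 3 LV-shNC arrays for that probe set, with LV-shIL-1β left of LV-shNC for each probe set and bars at the group means. The 3 HLA-E probe sets lie lower in LV-shIL-1β without overlap, TAPBP 210294_at and TAP2 208428_at lie higher without overlap, and in all others the groups overlap.

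The groups did not overlap for 1 probe set that lay above in LV-shIL-1β (4.76% of the 21, against 15.3% of all tested) and for 3 that lay below (14.3%, against 12.6% of all). For the 20 members that were not called, the 95% interval of the change lay within 10% of no change for 6 and within 20% for 18. The lowest bound among these 20 was -16.9% (B2M 232311_at) and the highest 34.3% (TAPBP 210294_at).

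**Figure D2:**
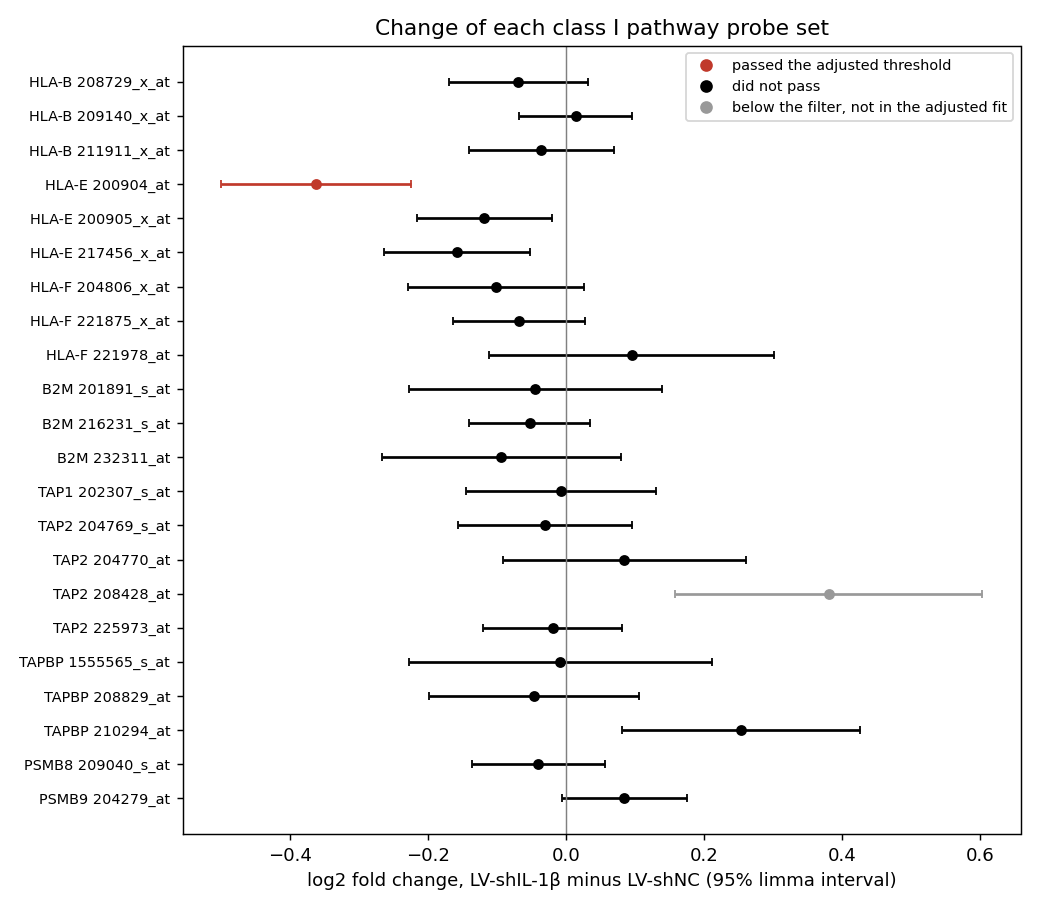
The log2 fold change (LV-shIL-1β minus LV-shNC) of each probe set is drawn with its 95% limma interval. HLA-E 200904_at, at -0.36, is the only probe set past the adjusted threshold, and TAP2 208428_at, in grey, lay below the filter and has its interval from the fit on all probe sets.

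Among the heavy chains, HLA-E was the gene with a called probe set. HLA-E presents leader peptides of other class I chains and is the ligand of the inhibitory receptor CD94/NKG2A on natural killer cells. Its probe set 200904_at read 137, 136 and 151 on the LV-shIL-1β arrays, against 183, 184 and 178 on the LV-shNC arrays. Every LV-shIL-1β array lay below every LV-shNC array, and the third LV-shIL-1β array was the nearest to the control level. The means were 141 ± 8.16 in LV-shIL-1β and 182 ± 3.19 in LV-shNC (SD, n = 3). The log2 fold change was -0.36 ± 0.06 (SE, limma adjusted p = 0.00826), or -22.2% with a 95% interval of -29.3% to -14.4%. In bulk RNA, fewer cells that express the gene and less RNA per cell cannot be told apart. The call was lost under 3 of 14 alternatives. Among them was the test of the study's statistics section after adjustment (adjusted p = 0.0728). Another was the omission of the second LV-shIL-1β array (limma adjusted p = 0.0510). Over the 14 the adjusted p ran from 0.00583 to 0.0728 and the change from -0.41 to -0.33. The methods name no adjustment.

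The other HLA-E probe sets were brighter, lay lower by less and did not pass the threshold. Read by its brightest probe set (200905_x_at), as the wider list is below, HLA-E was not called. HLA-E 217456_x_at read 452, 438 and 436 in LV-shIL-1β, against 504, 501 and 475 in LV-shNC, a log2 fold change of -0.16 ± 0.05 (SE, limma adjusted p = 0.0785). HLA-E 200905_x_at read 984, 999 and 1028 in LV-shIL-1β, against 1132, 1095 and 1044 in LV-shNC, a change of -0.12 ± 0.04 (adjusted p = 0.139). Neither overlapped between groups, although the third LV-shIL-1β array of 200905_x_at came close to the lowest LV-shNC array. The suffix _x_at marks probe sets whose probes can also match other transcripts, and it was carried by these 2 and by 7 of the 22 in all, each of them for an HLA gene. How much other heavy chains add to their signal cannot be told apart here.

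HLA-B, a classical chain that presents peptides to CD8 T cells, was measured by 3 probe sets, all of the _x_at kind. Its brightest, 209140_x_at, read 3831, 3665 and 3839 in LV-shIL-1β, against 3874, 3775 and 3585 in LV-shNC. The groups overlapped, with a log2 fold change of 0.01 ± 0.04 (SE, limma adjusted p = 0.868) and a 95% interval of -4.63% to 6.82%. HLA-B 208729_x_at (1557, 1533 and 1588 in LV-shIL-1β, against 1717, 1655 and 1541 in LV-shNC) differed by -0.07 with an adjusted p of 0.400. HLA-B 211911_x_at (1719, 1677 and 1741 in LV-shIL-1β, against 1820.1, 1819 and 1634 in LV-shNC) differed by -0.04 with an adjusted p of 0.699. On both, the third LV-shNC array was the lowest of its group and lay below at least 1 LV-shIL-1β array.

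The signals of HLA-E 200904_at were also set against other HLA probe sets of the same array, which removes differences in overall brightness between arrays. The log2 difference to HLA-B 209140_x_at was -4.80, -4.75 and -4.67 on the LV-shIL-1β arrays, against -4.40, -4.36 and -4.33 on the LV-shNC arrays. It was lower in LV-shIL-1β by 0.38 on the log2 scale, with no overlap. The same held against HLA-B 211911_x_at (group difference -0.33) and HLA-B 208729_x_at (-0.29), and against the other HLA-E probe sets 200905_x_at (-0.24) and 217456_x_at (-0.20). Each of these 5 gave an exact two-sided permutation p of 0.1, the smallest that 3 against 3 arrays allow. This p was 0.111 after adjustment over the 10 pairs compared (HLA-E, TAP2 and TAPBP), which were chosen with the values known. HLA-E 200904_at was taken as the HLA-E probe set with the largest change in size. Against the other HLA-E probe sets, the direction of the difference thus followed from that choice. Against HLA-B, each difference is the change of 200904_at less that of the HLA-B probe set. The HLA-B pairs thus restate changes given above and are no separate evidence.

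**Figure D3:**
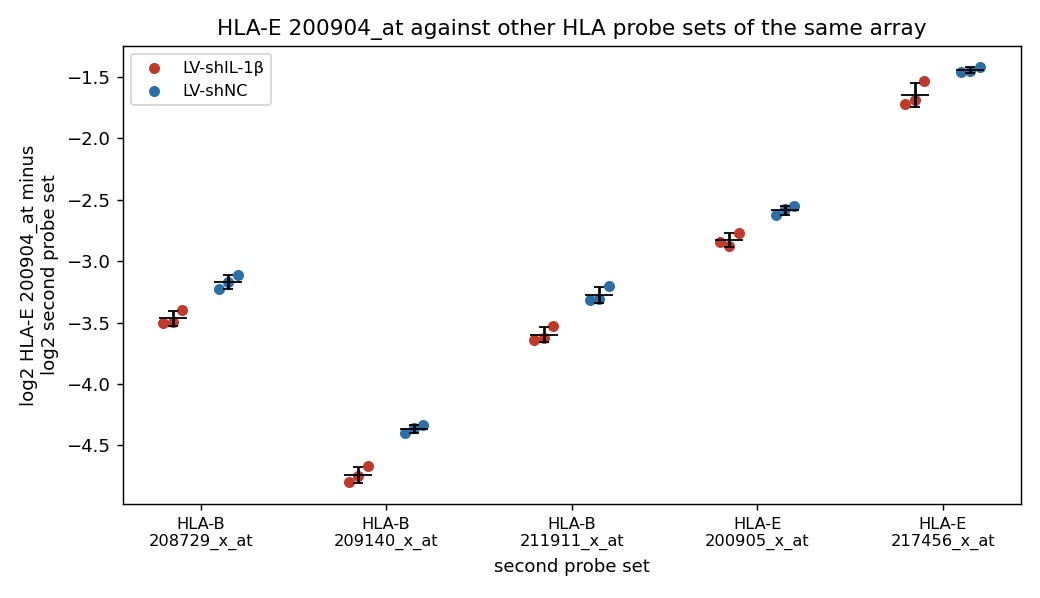
Points are single arrays and show the log2 signal of HLA-E 200904_at minus that of a second HLA probe set on the same array, with the group mean and SD (n = 3), LV-shIL-1β left of LV-shNC. The LV-shIL-1β arrays lie below the LV-shNC arrays against all 5 second probe sets, by 0.20 to 0.38 on the log2 scale. HLA-E 200904_at was chosen as the HLA-E probe set with the largest change in size.

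HLA-F, a non-classical chain that can reach the surface without peptide and is seen by natural killer cell receptors, passed the test on none of its 3 probe sets. HLA-F 221875_x_at read 901, 925 and 958 in LV-shIL-1β, against 982, 994 and 942 in LV-shNC (log2 fold change -0.07, limma adjusted p = 0.383). HLA-F 204806_x_at read 804, 751 and 820 in LV-shIL-1β, against 903, 855 and 793 in LV-shNC (-0.10, adjusted p = 0.327). HLA-F 221978_at, the only one without the _x_at suffix, was dim, at 33.0, 30.5 and 28.5 in LV-shIL-1β, against 30.1, 29.5 and 26.5 in LV-shNC. It differed by 0.09 in the other direction (adjusted p = 0.595), and its interval of -7.44% to 23.2% was wide. Over the 9 heavy chain probe sets, 1 was called lower, 7 lay below 0 and the median log2 fold change was -0.07.

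B2M encodes β2-microglobulin, the light chain that pairs with class I heavy chains. B2M 201891_s_at read 6961, 6026 and 6194 in LV-shIL-1β, against 5691, 7162 and 6999 in LV-shNC. The first array of each group stood apart from the other two of that group, in opposite directions, and the groups overlapped (log2 fold change -0.05 ± 0.08, SE, limma adjusted p = 0.794). B2M 216231_s_at read 6112, 5678 and 5904 in LV-shIL-1β, against 5851, 6404 and 6107 in LV-shNC (-0.05 ± 0.04, adjusted p = 0.464). B2M 232311_at read 86.0, 100.04 and 95.3 in LV-shIL-1β, against 107, 98.5 and 95.1 in LV-shNC (-0.09, adjusted p = 0.517). All 3 probe sets of B2M lay below 0 with overlapping groups, with a median of -0.05.

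TAP1 and TAP2 form the peptide transporter together. TAP1 202307_s_at, its only probe set, read 549, 633 and 619.7 in LV-shIL-1β, against 626, 576 and 607 in LV-shNC. The groups overlapped, with a log2 fold change of -0.01 ± 0.06 (SE, limma adjusted p = 0.957) and a 95% interval of -9.62% to 9.47%. TAP2 225973_at read 609, 622 and 605 in LV-shIL-1β, against 597, 625 and 639.6 in LV-shNC (-0.02, adjusted p = 0.838). TAP2 204769_s_at read 209, 223 and 219 in LV-shIL-1β, against 226, 212 and 226 in LV-shNC (-0.03, adjusted p = 0.796). On all these 3 probe sets the arrays of the groups were interleaved. TAP2 204770_at, at 53.8, 60.7 and 57.9 in LV-shIL-1β and 57.9, 53.3 and 51.4 in LV-shNC, differed by 0.08 (adjusted p = 0.577).

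The fourth TAP2 probe set, 208428_at, was the one member below the filter. It read 10.8, 10.9 and 12.0 in LV-shIL-1β, against 8.85, 8.64 and 8.44 in LV-shNC, so that all LV-shIL-1β arrays lay above all LV-shNC arrays, at a level below that of most probe sets of the array. In the fit on all probe sets its log2 fold change was 0.38 ± 0.10 (SE, limma adjusted p = 0.0790), and with a pseudocount of 16 added to the signal it was 0.15. Within arrays it stood higher in LV-shIL-1β against TAP2 204769_s_at (difference 0.41), 225973_at (0.40) and 204770_at (0.30 on the log2 scale), each without overlap. The exact permutation p was 0.1 for each, the smallest possible, and 0.111 after adjustment over the 10 pairs. TAP2 208428_at was taken as the TAP2 probe set with the largest change in size, so the direction of these differences followed from that choice. The brighter TAP2 probe sets differed by -0.03 to 0.08 with overlapping groups.

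TAPBP encodes tapasin, which bridges the transporter and the heavy chain and edits the bound peptide. Its brightest probe set, 208829_at, read 643, 679.6 and 713 in LV-shIL-1β, against 776, 653 and 678 in LV-shNC, with overlapping groups (log2 fold change -0.05, limma adjusted p = 0.735). TAPBP 1555565_s_at read 116, 122 and 130.3 in LV-shIL-1β, against 138, 128 and 105 in LV-shNC (-0.01, adjusted p = 0.969). TAPBP 210294_at was dimmer and went the other way, at 37.0, 41.2 and 39.9 in LV-shIL-1β, against 32.8, 33.1 and 33.0 in LV-shNC. Its groups did not overlap, and the log2 fold change of 0.25 ± 0.08 (SE) had a 95% interval of 5.79% to 34.3% but did not pass after adjustment (limma adjusted p = 0.0823). Set against 208829_at on the same array, 210294_at was higher in LV-shIL-1β by 0.30 on the log2 scale without overlap (exact permutation p = 0.1, adjusted 0.111). Against 1555565_s_at it was higher by 0.26 with overlap (exact permutation p = 0.2, before and after adjustment). TAPBP 210294_at was taken as the TAPBP probe set with the largest change in size, so the direction of these differences followed from that choice.

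PSMB8 and PSMB9 are catalytic subunits of the immunoproteasome, which replace constitutive subunits after interferon and favour peptides that fit class I grooves. PSMB9 204279_at read 1479, 1504 and 1505 in LV-shIL-1β, against 1482, 1375 and 1379 in LV-shNC. The first LV-shNC array lay among the LV-shIL-1β values and the other two below all of them, and the log2 fold change was 0.08 ± 0.04 (SE, limma adjusted p = 0.258) with a 95% interval of -0.470% to 12.9%. PSMB8 209040_s_at read 695, 704 and 731 in LV-shIL-1β, against 745, 712 and 734 in LV-shNC, a change of -0.04 (adjusted p = 0.629). The subunits thus differed in sign, and neither passed the test. By role, the median log2 fold change of the kept probe sets was -0.01 for the transporter (4), -0.01 for tapasin (3) and 0.02 for the immunoproteasome (2).

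Averaged over the 9 genes (brightest kept probe set each, log2 signal centred on its own mean), the pathway stood at -0.03, -0.02 and 0.01 on the LV-shIL-1β arrays, against 0.03, 0.01 and 0.00 on the LV-shNC arrays. The first array of each group was the farthest from 0, and the means of the groups differed by -0.03. Among 12270 genes, the profiles closest to it were those of CCT4, a subunit of a cytosolic chaperonin (root mean square difference 0.00925 on the log2 scale over the 6 arrays), RALGDS, an activator of Ral GTPases (0.0100), and POLK, a DNA polymerase that copies past lesions (0.0112). None of these 3 was called (limma adjusted p of 0.564, 0.863 and 0.822).

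A wider list of 36 class I pathway genes was read in the same comparison, each by its brightest kept probe set, and 30 were measured. None rose and 1 fell at the adjusted threshold, against 3.68% of all tested probe sets higher and 3.37% lower, and the median change was -0.02 on the log2 scale. The unadjusted limma p was under 0.05 for 3 that were higher and 6 that were lower, against 22.6% of all tested probe sets in either direction. The test of the study's statistics section gave 3 and 4. The gene that fell was PDIA3, the disulfide isomerase ERp57 of the peptide-loading complex. PDIA3 208612_at read 1801, 1857 and 1708 in LV-shIL-1β, against 2091, 2102 and 1927 in LV-shNC, a log2 fold change of -0.19 ± 0.05 (SE, limma adjusted p = 0.0394). Its groups did not overlap, and its other probe sets changed by -0.20 (227033_at, adjusted p = 0.0791) and -0.19 (229453_at, adjusted p = 0.218). The call of PDIA3 was lost under 10 of 14 alternatives, where the adjusted p ran from 0.0328 to 0.193 over all 14.

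The regulators of class I transcription gave no call on their brightest probe sets. NLRC5, the class I transactivator, read 36.7, 40.3 and 39.6 in LV-shIL-1β, against 37.2, 33.8 and 38.4 in LV-shNC (log2 fold change 0.09, limma adjusted p = 0.554). IRF1, an interferon-induced factor, read 287, 269.5 and 279 in LV-shIL-1β, against 289.6, 299 and 285 in LV-shNC (-0.07, adjusted p = 0.496). The median over the 9 measured regulators was 0.06. It was 0.01 over the other heavy chains HLA-C and HLA-G (2 genes, 0 called), -0.07 over the 6 trimming and loading genes, -0.00 over 7 other proteasome genes and -0.16 over 6 class I-like molecules and natural killer cell ligands, where 0 genes were called. The HLA-C and HLA-G probe sets were all of the _x_at kind, and how much other heavy chains add to them cannot be told apart here. ULBP1, ULBP3 and CD1D lay below the filter, and the other genes of the list that were not measured are not analysed here.

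**Figure D4:**
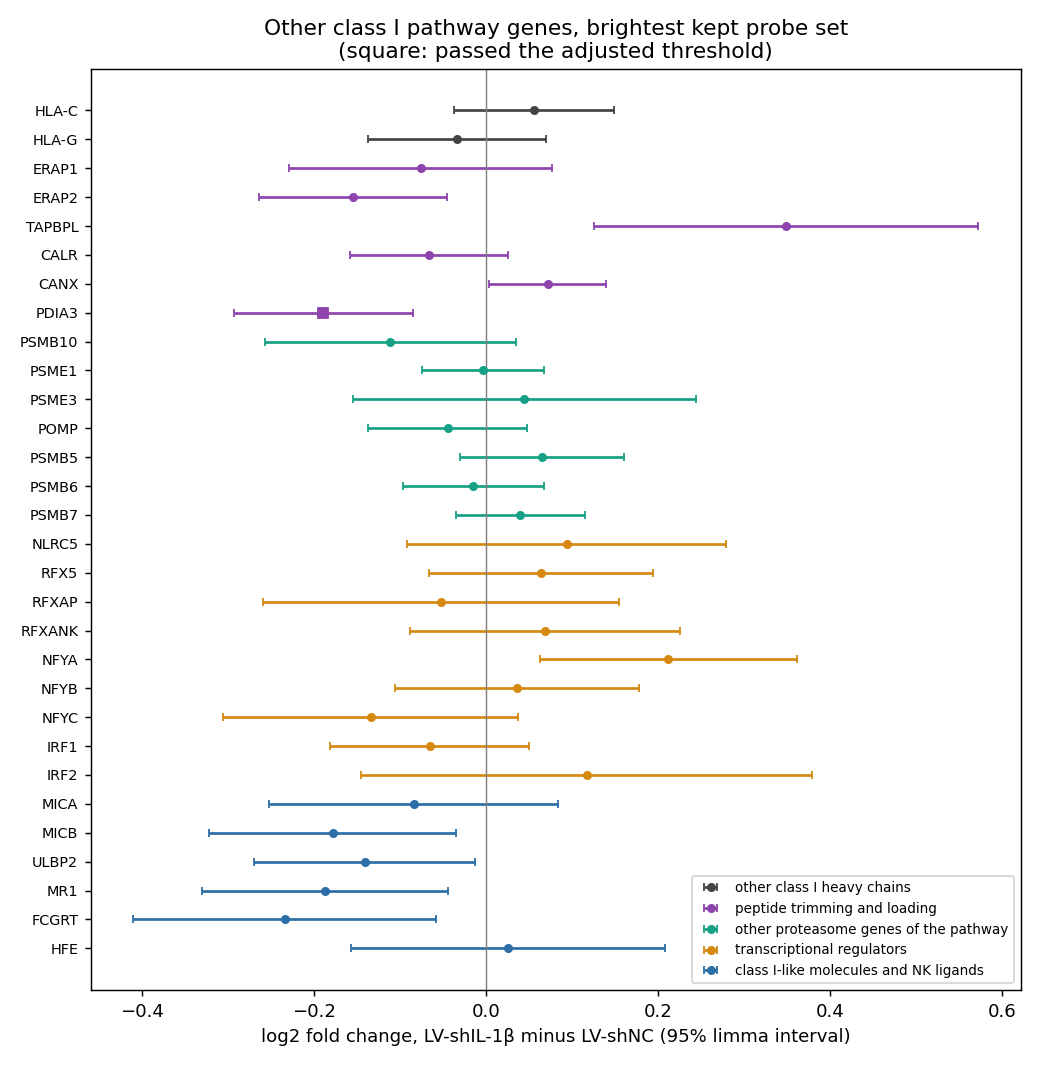
The log2 fold change (LV-shIL-1β minus LV-shNC) with its 95% limma interval is drawn for the brightest kept probe set of each of the 30 other pathway genes, coloured by role. PDIA3, the square at -0.19, is the only one past the adjusted threshold, and the values run from -0.23 (FCGRT) to 0.35 (TAPBPL).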

How the data were processed

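The intensities deposited by the authors were linear signals, 1 per probe set and array, for 54675 probe sets on 6 arrays. The submitters' processing notes name MAS5. No source used here gives its settings or says whether values were also processed across arrays. The median signal of an array was 18.4 to 18.9, and precision is limited by the number of arrays. Groups came from the sample titles.

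Deposited signals were log2 transformed with no further scaling. The 62 control probe sets were left out, and probe sets above the median of the remaining values (18.6) on at least 3 arrays were kept (27566). LV-shIL-1β was compared with LV-shNC by lmFit and eBayes (with trend, two-sided) of limma 3.58.1 under R 4.3.3, with Benjamini-Hochberg adjustment over all kept probe sets and a threshold of 0.05. This model was tested on simulated data drawn from its own fitted spread, which cannot show how well it suits these arrays. Exact permutation tests used scipy 1.17.1. A fold over 1.5 with an unadjusted p under 0.05 was also applied without a filter, since the methods of the study name a fold and a detection P value.

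Symbols came from the platform annotation, where 41097 probe sets have 1 symbol, 1801 have several and 11777 have none. Of those with several, 0 include a member. The text names every member, IL1B, the called genes of the wider list by their brightest probe set, NLRC5 and IRF1, and the 3 closest profiles. The members and gene lists were chosen with earlier results of these data known. Alternatives were median centring, quantile normalization, a pseudocount of 16, no filter, a signal above 100, no trend and the replicate number as a block. Further ones were Student's t-test (the test of the study's statistics section), each array left out, and the mean over the probe sets of a gene for the wider list.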

Additional observations from a re-analysis of the deposited data

How the results depend on the processing

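Of 290 values of single member probe sets under the alternatives, 276 kept their direction and their side of the threshold, 3 lost the call (HLA-E 200904_at) and 11 turned in sign, on 6 probe sets whose change was at most 0.05 in size and never called. Over the omissions of single arrays, HLA-B 209140_x_at ran from -0.0176 (without LV-shNC array 3) to 0.0383, B2M 201891_s_at from -0.150 to 0.0158 (without LV-shNC array 2), and TAP2 225973_at from -0.0473 to 0.00198 (without LV-shNC array 3). TAP1 202307_s_at ran from -0.0472 to 0.0558 (above 0 without array 1 of either group) and was 0.00747 with median centring. TAPBP 1555565_s_at ran from -0.122 to 0.0744 (above 0 without array 1 of either group or LV-shNC array 2) and was 0.00614 with median centring. TAPBP 208829_at ran from -0.0980 to 0.0270 (without LV-shNC array 1). No alternative that could be run called a member past a fold of 1.5. The minimum signal of 100 leaves out the dimmest probe sets, which have no value there. No scaling moved the median of all probe sets by over 0.1.

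With the replicate number as a block, 568 probe sets changed (255 higher and 313 lower), against 1943 (1014 higher and 929 lower) without it. HLA-E 200904_at then had a limma adjusted p of 0.0636, so that 0 members were called lower, and 0 of the other pathway genes. Arrays of the same number did not deviate together (correlations -0.39, -0.11 and -0.21). With 3 arrays a group, this cannot tell whether the numbers pair the samples. Student's t-test gave 267 changed probe sets (106 higher and 161 lower) after adjustment, with 0 members and 0 other pathway genes lower. Leaving out each array in turn gave 696 to 1808 changed probe sets (272 to 1059 higher, 424 to 749 lower). The lowest total came without LV-shIL-1β array 2, and the totals were 880 without LV-shIL-1β array 3 and 1220, 911 and 1086 without LV-shNC arrays 1, 2 and 3. Under these omissions, members called lower numbered 0 to 1, other pathway genes called lower 0 to 1 and higher 0 to 1 (TAPBPL, without LV-shNC array 1).

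Among the other pathway genes, 0 were called lower with median centring, with no filter and with no mean trend. The mean over the probe sets of a gene called 2 higher (TAPBPL and RFX5) and 2 lower (PDIA3 and FCGRT). The causes were not tested. With 3 arrays a group, small differences such as those of most members cannot be told from the spread, and the intervals of TAP2 208428_at, TAPBP 1555565_s_at and HLA-F 221978_at are wide.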

Other observations

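Over all 85 kept probe sets of the wider pathway list, 3 were called higher and 1 lower, a number near or below the background of 3.68% higher and 3.37% lower over all tested probe sets. The 3 that were higher were not the brightest of their genes and were picked out after their values were seen. TAPBPL encodes TAPBPR, a relative of tapasin that edits peptides outside the loading complex. TAPBPL 218746_at read 53.7, 55.0 and 49.4 in LV-shIL-1β, against 40.9, 40.6 and 41.0 in LV-shNC, without overlap (log2 fold change 0.37 ± 0.07, SE, limma adjusted p = 0.0180). Its brighter probe set 218747_s_at read 55.8, 60.7 and 60.6 in LV-shIL-1β, against 52.6, 40.2 and 46.9 in LV-shNC, and also did not overlap (0.35 ± 0.10, adjusted p = 0.0685). Of the 2 probe sets of TAPBPL, 1 passed the test.

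PSME3, a subunit of a nuclear proteasome activator, was called higher on 209852_x_at, with 178, 184 and 186 in LV-shIL-1β, against 154, 150.0 and 147 in LV-shNC (log2 fold change 0.28, limma adjusted p = 0.0170). Its brightest probe set 200987_x_at differed by 0.04 with overlapping groups (adjusted p = 0.815). RFX5, a subunit of the factor that binds the X box of MHC promoters, was called higher on 202964_s_at, with 84.5, 90.9 and 90.4 in LV-shIL-1β, against 74.4, 74.4 and 69.9 in LV-shNC (0.28, adjusted p = 0.0340). Its brightest probe set 202963_at differed by 0.06 (adjusted p = 0.564). For both genes the call rested on 1 probe set.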
